A study of Bos taurus with 12 samples.

Results

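The fibroblast growth factor (FGF) family was followed in corpora lutea of cows given prostaglandin F2α (PGF2α): 5 ligand genes (FGF1, FGF2, FGF7, FGF10 and FGF18) and 4 receptor genes (FGFR1 to FGFR4). These 9 genes were chosen by name and were matched by their symbols to 9 of the 27270 genes in the tables of the 12 cows. Estrous cycles of mixed breed cows had been synchronized, and saline or a luteolytic amount of PGF2α was given into the muscle on day 10, in the mid luteal phase. The ovary was removed from 4 saline-treated cows (control), from 4 cows 4 h post-PGF2α and from 4 other cows 12 h post-PGF2α. Total RNA of whole luteal tissue gave 1 library per cow, so the cow is the replicate and each treated cow was seen at a single time. Both treated groups are set against the same 4 control cows. Individual cows are named by the labels' codes, and values are listed in the order C-4285, C-6464, C-7367 and C-7514 for controls, 4H-4291, 4H-5341, 4H-6455 and 4H-6456 at 4 h, and 12H-5266, 12H-6314, 12H-7382 and 12H-7475 at 12 h.

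FGF ligands are secreted or released proteins that act over short distances, because most of them bind heparan sulfate chains at cell surfaces and in the matrix. A ligand held on heparan sulfate joins receptor tyrosine kinases in pairs, and the activated receptor recruits the adaptor FRS2 and switches on RAS-ERK, PI3 kinase and phospholipase C signalling. Sprouty, SPRED and DUSP proteins restrain that signalling. In the corpus luteum, an endocrine gland with one of the densest capillary beds in the body, the family is best known for FGF2, a growth factor for endothelial and luteal cells. PGF2α starts luteolysis, the loss of progesterone secretion followed by regression of the gland.

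Levels are given as TPM (transcript abundance per length within a library, a measure that allows genes to be set side by side). Changes are given as log2 fold changes of RSEM's expected counts after TMM scaling, with standard errors (SE) and Benjamini-Hochberg adjusted p values over all 14481 genes tested, from edgeR's quasi-likelihood test with the 3 groups in 1 fit. "Rose" and "fell" are used for adjusted p values under 0.05. Total expected counts were 10263310 to 22600213 in controls, 15527149 to 22352909 at 4 h and 12471493 to 17880450 at 12 h. The tissue label was borne out by the steroidogenic luteal markers (9 genes, among them STAR, CYP11A1 and HSD3B1), which summed to 22867 to 32504 TPM in control cows, 20243 to 24226 TPM in 4 h cows and 5561 to 11074 TPM in 12 h cows. Cow 12H-6314 of the 12 h group stood apart from its group, with a chi-square of 68.1 to 125 per gene against the other 12 h cows, which differed among themselves by 22.4 to 26.4. In the 4 h group, cow 4H-6455 gave the 3 largest distances, 48.0 to 63.2, which is within the 34.2 to 71.1 of the control pairs. Control cow C-4285 was at 48.6 to 71.1 from the other controls.

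At 4 h, 3 of the 8 FGF genes that reached the count minimum rose and 1 fell, in a comparison in which 8.65% of all genes tested rose and 5.59% fell. FGF2 rose most, 7.47-fold in mean TPM, and FGF1 and FGF10 rose by 1.23 and 0.87 on the log2 scale, while FGFR2 fell. At 12 h, FGF2 and FGF10 rose, and so did FGF18, which reached the count minimum only through the treated cows, so that its entry into the test depended on the difference tested. These are 3 of 8, a count given beside the 23.6% of all genes that rose but not read against it, and 0 fell against 25.3% of all genes (0 by DESeq2, and 0 with an unadjusted p under 0.05 in edgeR). From 4 h to 12 h, FGFR2 rose and FGF1 fell, each 1 of 8 genes, where 22.5% of all genes rose and 24.3% fell. The median log2 fold change of the 8 genes was 1.05 at 4 h, 0.01 at 12 h and -0.72 between 12 h and 4 h, beside -0.03, 0.01 and 0.02 over all genes tested. Without cows 4H-6455 and 12H-6314 together, FGF1, FGF2, FGF10 and FGFR2 kept their calls at 4 h and FGF2, FGF10 and FGF18 kept theirs at 12 h. Between 12 h and 4 h the same omission lost the rise of FGFR2 (0.80, edgeR adjusted p = 0.0918), added a rise of FGF18, and had 3 genes falling in place of 1 (FGF1, FGF7 and FGFR1). FGFR4 lay under the count minimum.

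**Figure D1:**
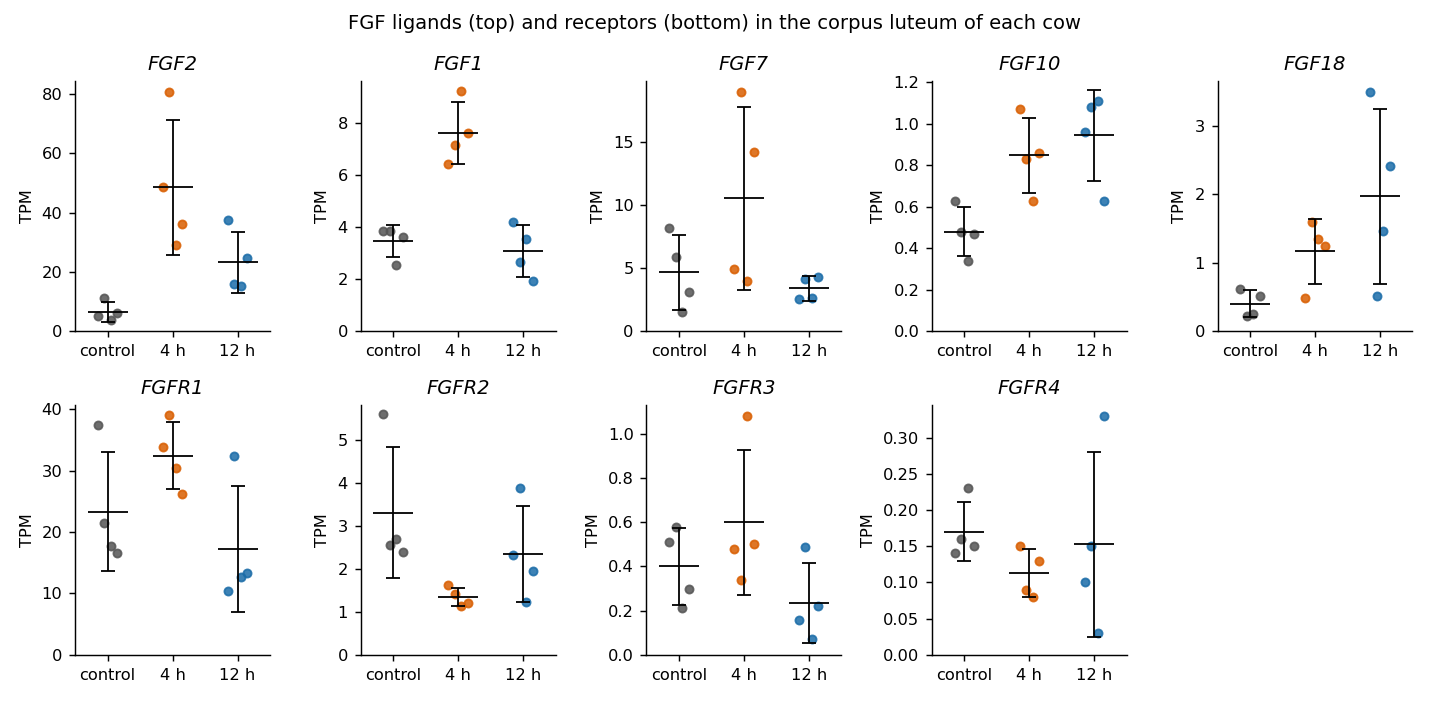
TPM of the 5 FGF ligands (top) and the 4 FGF receptors (bottom) in each cow, by group, on linear axes that start at 0 and differ between genes. Each point is 1 cow, the long bar is the group mean and the short bars are 1 SD (n = 4). The FGF2 and FGF1 points at 4 h lie above every control point, and the FGFR2 points at 4 h lie below every control point.

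FGF2, basic FGF, an angiogenic ligand that leaves cells without a classical signal peptide, lies on chromosome 17 from 34801330 to 34860849 (ARS-UCD 1.2) and has 1 transcript in the tables. The control cows had 5.13, 11.20, 3.66 and 6.04 TPM of FGF2. At 4 h, FGF2 stood at 48.61, 80.55, 28.94 and 36.25 TPM. At 12 h, it stood at 37.36, 16.04, 15.09 and 24.68 TPM. Every treated cow was above every control cow at both times, and the 4 h and 12 h cows overlapped. Group means (± SD, n = 4) were 6.51 ± 3.28, 48.6 ± 22.8 and 23.3 ± 10.3 TPM, so the mean at 12 h was 3.58-fold the control mean. The log2 fold change of FGF2 was 2.92 (SE 0.45, edgeR adjusted p = 0.00124) at 4 h and 2.18 (SE 0.44, edgeR adjusted p = 0.00139) at 12 h, and the difference between the times, -0.74 (SE 0.42, edgeR adjusted p = 0.159), did not pass the threshold. With each cow left out in turn the FGF2 change stayed between 2.57 and 3.35 at 4 h and between 1.78 and 2.63 at 12 h, and passed the test each time. Leaving out cow 12H-5266, which had the most FGF2 of the 12 h group, gave a called fall from 4 h to 12 h (-1.14, edgeR adjusted p = 0.0461). With an offset for transcript length, the FGF2 difference between the times was only -0.25 (SE 0.42, edgeR adjusted p = 0.659). In whole tissue, fewer cells of a type and less RNA per cell cannot be told apart, and this holds for every level given here.

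NUDT6, a nudix hydrolase gene transcribed from the opposite strand, overlaps FGF2 by 5830 bases (its own span is 34747124 to 34807159 of chromosome 17). Whether reads were counted by strand is not given in the sources used here. Expected counts of both genes were fractional, such as 210.13 for FGF2 and 38.87 for NUDT6 in cow C-4285. In every cow both counts together made a whole number, so some reads were divided between these genes. How many reads were divided is not known. The log2 fold change of NUDT6 was -0.43 (SE 0.19, edgeR adjusted p = 0.145) at 4 h, and NUDT6 fell at 12 h (-0.74, SE 0.19, edgeR adjusted p = 0.00679). The counts assigned to NUDT6 did not rise with those of FGF2. Because reads were divided between these genes, the NUDT6 values are not separate from those of FGF2 and are no check on its rise.

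FGF1, acidic FGF, binds all 4 receptors and likewise lacks a signal peptide. It lies on chromosome 7 from 53622273 to 53729308, with 4 transcripts in the tables, and holds the microRNA gene bta-mir-2460. Controls had 3.84, 3.84, 2.56 and 3.61 TPM of FGF1. The 4 h cows had 6.44, 7.16, 9.26 and 7.62 TPM, and the 12 h cows had 4.21, 2.65, 3.56 and 1.92 TPM. All 4 cows at 4 h were thus above all 8 others, and the 12 h cows overlapped the controls. FGF1 rose at 4 h (log2 fold change 1.23, SE 0.24, edgeR adjusted p = 0.00579), a 2.20-fold change in mean TPM, and fell from 4 h to 12 h (-1.08, SE 0.24, edgeR adjusted p = 0.0031). At 12 h against control the log2 fold change was 0.15 (SE 0.24, edgeR adjusted p = 0.63), while the ratio of mean TPM was 0.891, so its sign depended on the scale. Unlike FGF2, whose 12 h cows remained above every control, FGF1 was raised at 4 h and within the control range or below it in 3 of 4 cows at 12 h.

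FGF7 and FGF10 form a subfamily of secreted ligands that connective tissue cells supply to the b splice forms of FGFR2 and, for FGF10, FGFR1. FGF7, keratinocyte growth factor, lies on chromosome 10 from 60791420 to 60854483. It had 8.19, 5.87, 1.52 and 3.10 TPM in controls, 4.98, 19.01, 4.01 and 14.21 at 4 h, and 2.53, 4.16, 2.61 and 4.31 at 12 h. Cows 4H-5341 and 4H-6456 at 4 h had more FGF7 than any other cow, whereas the other 4 h cows lay within the control range. None of its comparisons passed the test: the log2 fold change was 1.23 (SE 0.53, edgeR adjusted p = 0.142) at 4 h, -0.12 (SE 0.54, edgeR adjusted p = 0.865) at 12 h and -1.36 (SE 0.53, edgeR adjusted p = 0.0527) between 12 h and 4 h. The last of these passed with DESeq2 (adjusted p = 0.0183).

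FGF10, on chromosome 20 from 30504441 to 30601752, was near the lower end of what was measured. Expected counts of FGF10 were 13, 21, 13 and 22 in controls, 49, 36, 24 and 27 at 4 h, and 39, 43, 40 and 19 at 12 h. In TPM these were 0.63, 0.48, 0.34 and 0.47 in controls, 1.07, 0.83, 0.63 and 0.86 at 4 h, and 0.96, 1.08, 1.11 and 0.63 at 12 h. The highest control cow equalled the lowest cow of each treated group, and the other treated cows were higher. FGF10 rose at 12 h (log2 fold change 1.31, SE 0.26, edgeR adjusted p = 0.00127). The rise at 4 h (0.87, SE 0.26, edgeR adjusted p = 0.0417) was lost with 7 of the 12 cows left out in turn (highest adjusted p = 0.111), with no count minimum, in the fit of the 2 groups alone, in limma and with the offset for transcript length.

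FGF18, a ligand of the FGF8 subfamily known from bone, cartilage and lung, lies on chromosome 20 from 3226532 to 3263206. Controls held 4, 6, 6 and 9 expected counts of FGF18, so the gene entered the test through the treated cows. The 4 h cows held 10, 25, 20 and 21 counts and the 12 h cows 62, 13, 19 and 41. Its levels were 0.62, 0.22, 0.25 and 0.52 TPM in controls, 0.49, 1.59, 1.35 and 1.24 at 4 h, and 3.49, 0.52, 1.46 and 2.41 at 12 h. Cow 4H-4291 at 4 h and cow 12H-6314 at 12 h lay within the control range, and the other treated cows lay above it. FGF18 rose at 12 h (log2 fold change 2.81, SE 0.57, edgeR adjusted p = 0.00147). In the fit with no count minimum, which does not depend on that filter, the value was 2.77 (SE 0.55, edgeR adjusted p = 0.00145). At 4 h the value was 1.57 (SE 0.58, edgeR adjusted p = 0.0899), which DESeq2 called (adjusted p = 0.0475). Over summed counts of the 4 cows a group, the ratio of FGF18 to control was 2.82 at 4 h, with a 95% interval from 1.78 to 4.63. At 12 h it was 6.30, with an interval from 4.09 to 10.1. Both are intervals that cover counting error only.

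FGFR1, the receptor kinase most used by FGF1 and FGF2 in connective tissue and endothelium, lies on chromosome 27 from 33549267 to 33599083 and has 6 transcripts in the tables. Controls had 37.46, 21.42, 17.70 and 16.65 TPM of FGFR1. The 4 h cows had 33.85, 39.13, 30.37 and 26.25 TPM, and the 12 h cows had 10.37, 32.43, 12.68 and 13.40 TPM. In each of the control and 12 h groups 1 cow was high (cow C-4285 and cow 12H-6314), the remaining 3 of either group lay below all 4 h cows, and the groups overlapped only through those 2 cows. No comparison of FGFR1 passed the test: the log2 fold change was 0.53 (SE 0.31, edgeR adjusted p = 0.274) at 4 h, -0.16 (SE 0.31, edgeR adjusted p = 0.69) at 12 h and -0.69 (SE 0.31, edgeR adjusted p = 0.0821) between 12 h and 4 h. Without cow 12H-6314, FGFR1 fell from 4 h to 12 h (-1.07, edgeR adjusted p = 0.00483).

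The same 2 cows were also high in markers of vascular and connective tissue. Cow 12H-6314 had the highest sums of its group for the endothelial (12 genes), pericyte and smooth muscle (10 genes), and fibroblast (10 genes) markers, at 877, 5204 and 19014 TPM, where the other 12 h cows had 427 to 485, 931 to 1739 and 6587 to 12592 TPM. Its steroidogenic markers were the lowest of the 12 h group, at 5561 TPM. Cow C-4285 had the highest sums of the controls for the same 3 lists (792, 2107 and 20543 TPM) and the lowest for steroidogenic markers (22867 TPM). No marker of these lists was at 0 in any group. A sum weighs abundant genes most, and ACTA2 alone reached 3816 TPM in the 12 h group. Sums of macrophage and monocyte markers differed between these cows. Cow 12H-6314 had the highest of its group (803 TPM), and cow C-4285 the lowest of the controls (205 TPM). The part of tissue make-up in the FGFR1 levels was not tested.

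FGFR2, whose b and c splice forms bind different ligands and are not separated in gene counts, lies on chromosome 26 from 41450745 to 41558092. Controls had 5.61, 2.57, 2.71 and 2.39 TPM of FGFR2, the 4 h cows 1.62, 1.42, 1.14 and 1.22, and the 12 h cows 2.33, 3.89, 1.24 and 1.96. All 4 h cows were below all controls, and cow C-4285 among controls and cow 12H-6314 at 12 h were again the highest of their groups. FGFR2 fell at 4 h (log2 fold change -1.28, SE 0.32, edgeR adjusted p = 0.0214) and rose from 4 h to 12 h (1.09, SE 0.33, edgeR adjusted p = 0.0159), and the 12 h value against control was -0.20 (SE 0.32, edgeR adjusted p = 0.627). The fall was lost without cow 4H-5341 (edgeR adjusted p = 0.0645) or cow 4H-6456 (edgeR adjusted p = 0.0555), though its size remained at -0.92 to -1.40 with each cow left out in turn. The later rise was lost in limma on log2(TPM + 1) (0.46, adjusted p = 0.149) and without cows 4H-6455 and 12H-6314 together (0.80, edgeR adjusted p = 0.0918).

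FGFR3, known for restraining bone growth, and FGFR4, known as the liver's receptor for the bile acid signal FGF19, were sparse in luteal tissue. FGFR3 (chromosome 6, 116766295 to 116780691) had 0.51, 0.58, 0.21 and 0.30 TPM in controls, 0.48, 0.34, 1.08 and 0.50 at 4 h, and 0.16, 0.49, 0.07 and 0.22 at 12 h. The groups overlapped in every comparison, and the log2 fold changes of 0.66 (SE 0.52, edgeR adjusted p = 0.434) at 4 h and -0.45 (SE 0.55, edgeR adjusted p = 0.522) at 12 h did not pass the test. Between 12 h and 4 h, the value for FGFR3 was -1.11 (SE 0.54, edgeR adjusted p = 0.107), and it passed only without cow 12H-6314 among the cows left out in turn (-1.65, edgeR adjusted p = 0.0341). FGFR4 (chromosome 7, 38575410 to 38586456) had 1 to 10 expected counts per cow. Summed over 4 cows these came to 26 counts in controls, 18 at 4 h and 21 at 12 h, a ratio to control of 0.643 (95% interval 0.332 to 1.22) and 0.942 (0.504 to 1.74). These intervals cover counting error only and leave out the spread between cows. A change of FGFR4 was not detectable at this depth, and the fit with no count minimum gave -0.57 (SE 0.57) and 0.04 (SE 0.57).

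**Figure D2:**
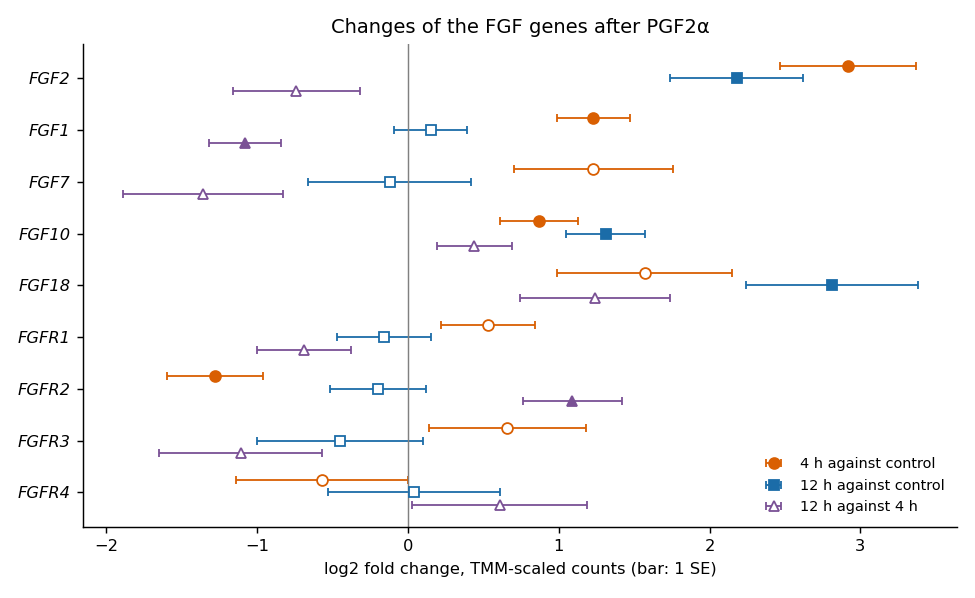
Log2 fold change of each FGF gene in the 3 comparisons, with bars of 1 SE, from TMM-scaled counts in edgeR. Filled symbols have an adjusted p under 0.05 over all genes tested, open symbols do not, and FGFR4 comes from the fit with no count minimum. FGF2 is far to the right at both times (2.92 and 2.18), FGF1 is filled at 4 h and on the left for 12 h against 4 h, and FGFR2 has the opposite order.

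By mean TPM the order in controls was FGFR1, FGF2, FGF7, FGF1, FGFR2, FGF10, FGF18, FGFR3 and FGFR4. Neighbours in that order had overlapping ranges, except that FGFR1 exceeded FGF2 and FGFR2 exceeded FGF10 in every control cow. FGF2 took the place above FGFR1 in both treated groups, in 3 of 4 cows at each time and with overlapping ranges. The receptor with the highest level was therefore FGFR1 and the ligand with the highest level FGF2 in all 3 groups.

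The 5 ligands summed to 15.5 ± 5.78 TPM in controls (SD, n = 4 in this and the other groups), to 68.8 ± 28.0 TPM at 4 h and to 32.7 ± 11.5 TPM at 12 h. Both treated groups were above all controls, with an exact two-sided permutation p of 0.0286 each, the smallest that 4 cows against 4 allow, and 0.0571 after adjustment over 12 tests. FGF2 supplied 41.9% ± 10.1 of the ligand sum in controls, 69.6% ± 8.35 at 4 h and 69.6% ± 6.30 at 12 h, again without overlap between treated and control cows (exact permutation p = 0.0286, adjusted 0.0571, at each time). The share of FGF2 at 12 h differed from that at 4 h by 0.0296 percentage points (exact permutation p = 0.971), although the sum at 12 h was 0.475 of that at 4 h.

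Summed receptors overlapped between all groups, with means (± SD, n = 4) of 27.2 ± 11.2 TPM for control cows, 34.5 ± 5.44 TPM for 4 h cows and 19.96 ± 11.4 TPM for 12 h cows. Of receptor TPM, FGFR1 was 85.7% ± 0.72 in controls, 93.9% ± 1.10 at 4 h and 85.6% ± 4.51 at 12 h, and every 4 h cow was above every other cow (exact permutation p = 0.0286, adjusted 0.0571, against either group). FGFR2 made up 12.1%, 3.95% and 12.4%. In the share, unlike in the level, the control cow C-4285 and the 12 h cow 12H-6314 were not set apart from their groups. No sum or share passed 0.05 after adjustment, and no TPM of a member did so over the 27 tests of members (lowest adjusted p = 0.154, exact permutation). With a smallest possible p of 0.0286, an adjusted value can pass 0.05 only if many of the tests reach that limit. These adjusted values therefore say little about whether levels changed.

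**Figure D3:**
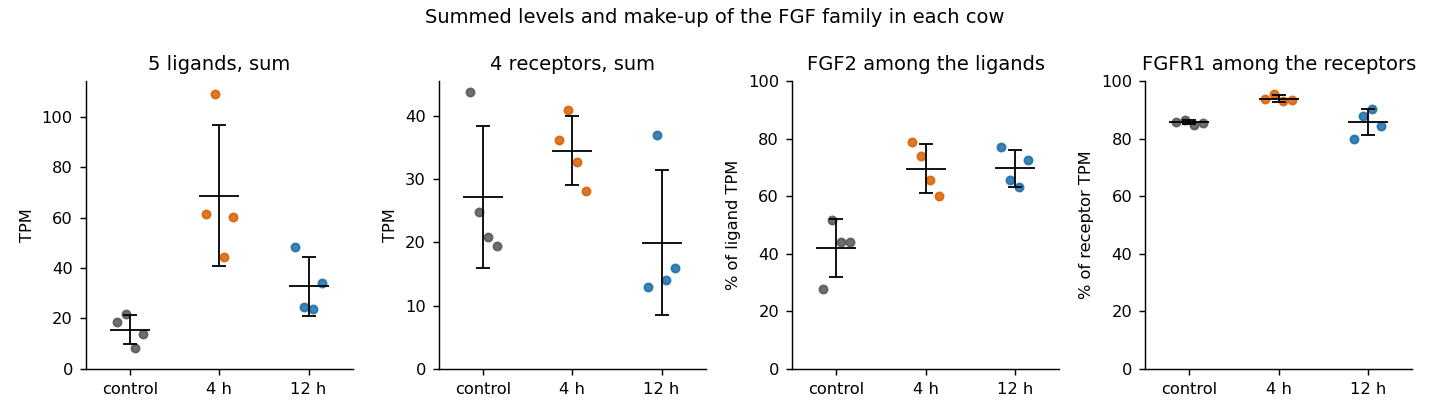
Summed TPM of the 5 ligands and of the 4 receptors, the percentage of ligand TPM from FGF2 and the percentage of receptor TPM from FGFR1, per cow and group, on linear axes from 0. Points are cows, long bars are means and short bars 1 SD (n = 4). Ligand sums of treated cows lie above all controls, receptor sums overlap, and the FGFR1 share is highest in the 4 cows at 4 h (mean 93.9%).

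The genes whose centred log2 CPM profile over the 12 libraries lay nearest to that of FGF2, among 13076 genes with a symbol, were TNFRSF6B, a soluble decoy receptor of the TNF family (root mean square difference 0.462), HMGA1, a chromatin architectural protein (0.472), and SLC17A2, a solute carrier (0.515). Their mean levels in control, 4 h and 12 h cows were 6.28, 58.8 and 19.8 TPM for TNFRSF6B. HMGA1 stood at 6.27, 37.9 and 21.6 TPM, and SLC17A2 at 0.04, 0.76 and 0.51 TPM. Among the nearest to FGFR1 were PEAR1, a platelet and endothelial receptor (0.271), and ZNF516, a zinc finger protein (0.275). Profiles of samples from 3 groups are near whenever genes share the group pattern, and these distances are descriptions with no test.

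Other genes of the pathway were followed from lists of named genes. Of 16 further genes with an FGF name in the tables, not all of them receptor ligands, 5 were tested. FGF3, FGF4, FGF5, FGF6, FGF17 and FGF19 were at 0 in all cows. FGF9, a ligand first known from glia, and FGF22, of the FGF7 subfamily, rose at 12 h (log2 fold change 1.0 and 0.95, edgeR adjusted p = 0.0359 and 0.0302). These are 2 of the 5 tested, where 23.6% of all genes rose. In limma on log2(TPM + 1) none of these 5 tested genes rose at 12 h and 1 fell. FGF12, an intracellular member that does not act through the receptors, had 24.3 ± 5.51 TPM in controls (SD, n = 4), then 14.6 ± 1.19 and 12.7 ± 3.27 TPM in the 4 h and 12 h cows. Its log2 fold changes of -0.66 and -0.51 did not pass the test (edgeR adjusted p = 0.079 and 0.0865). FGFRL1, a receptor that binds FGFs but has no kinase domain, rose at 12 h (1.38, SE 0.28, edgeR adjusted p = 0.00158). It was the 1 riser among 3 tested genes of the list of decoy receptor, klothos and carriers, beside 23.6% of all genes.

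Among heparan sulfate core proteins, 2 of 11 rose at 4 h, where 8.65% of all genes did, and 4 rose and 3 fell at 12 h, near the 23.6% and 25.3% of all genes. In limma on log2(TPM + 1), 2 rose at 12 h. SDC4, syndecan 4, a membrane proteoglycan that presents FGFs to their receptors, rose at both times, by 2.74 (SE 0.26, edgeR adjusted p = 4.78e-05) at 4 h and 1.07 (SE 0.24, edgeR adjusted p = 0.00318) at 12 h. Its mean level went from 36.2 TPM in controls to 236 TPM and then 60.7 TPM. At 12 h SDC1 rose (1.04), whereas the glypicans GPC4 (-0.93) and GPC6 (-1.76), proteoglycans held in the membrane by a lipid anchor, fell. The median of the core proteins was 0.29 at 4 h and -0.10 at 12 h.

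The genes that build and edit heparan sulfate had 1 of 12 rising at 4 h, near the 8.65% of all genes, and 3 without cows 4H-6455 and 12H-6314. At 12 h, 1 rose and 5 fell, beside 23.6% and 25.3% of all genes. The riser at 4 h was SULF1 (1.72, SE 0.23, edgeR adjusted p = 0.000627), an extracellular sulfatase that removes 6-O sulfates which FGF2 signalling uses. HS6ST2, which adds those sulfates, fell at 12 h (log2 fold change -2.39, SE 0.29, edgeR adjusted p = 5.04e-05), from a mean of 206 TPM in controls and 145 at 4 h to 31.7. EXT1, a chain polymerase subunit, rose at 12 h (0.60), and EXTL3, an initiator of the chain, and GLCE, an epimerase that modifies it, fell (-0.86 and -0.55). The list's median was 0.01 at 4 h and -0.18 at 12 h.

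Of 13 adaptors and proximal signalling genes, 1 rose at 4 h (PLCG1, 0.58) where 8.65% of all genes did, a number that DESeq2 put at 5 rising and 1 falling. At 12 h, 1 rose and 6 fell beside 23.6% and 25.3% of all genes, among the falls FRS2 (-1.43), PTPN11 (-1.85), SOS1 (-1.10) and PIK3R1 (-1.42). The median of the adaptors was 0.03 at 4 h, -0.29 at 12 h and -0.76 from 4 h to 12 h. In the last comparison 2 rose and 9 fell, beside 22.5% and 24.3% of all genes. Of 12 RAS-ERK genes, 0 were called at 4 h by edgeR (1 by DESeq2, and 2 with an unadjusted p under 0.05 in edgeR). At 12 h 4 of these rose (23.6% of all genes), a number that was 1 in limma on log2(TPM + 1), and 4 fell (25.3% of all genes). ARAF, a RAF kinase, rose (1.57), and RPS6KA3, a kinase downstream of ERK, fell (-0.93). The list's median was 0.14.

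Among feedback inhibitors, SPRED2 (1.2, SE 0.16, edgeR adjusted p = 0.000452) and SPRED3 (1.13, SE 0.34, edgeR adjusted p = 0.0421) rose at 4 h, 2 of 12, where 8.65% of all genes rose and where limma on log2(TPM + 1) had 1 of the list rising and 1 falling. At 12 h, 6 of 12 fell beside 25.3% of all genes and the other 6 did not pass the test. The number falling ranged from 5 to 8 over the other fits run for the lists, and the largest falls were those of SPRY4 (-3.04, SE 0.41), CBL (-2.93, SE 0.45) and SPRY3 (-2.27, SE 0.47), with FLRT2 at -0.98. SPRY4 went from 18.6 TPM in controls to 12.3 at 4 h and 1.85 at 12 h. The median of the list was 0 at 4 h, -0.58 at 12 h and -0.89 between 12 h and 4 h. Medians over all genes tested were -0.03, 0.01 and 0.02. Between 12 h and 4 h, 7 of 12 fell, beside 24.3% of all genes.

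Of 10 transcription targets of FGF-ERK signalling, 2 rose and 1 fell at 4 h, beside 8.65% and 5.59% of all genes, and DESeq2 had 5 rising. At 12 h, 1 rose and 5 fell, beside 23.6% and 25.3% of all genes. FOS, an immediate early gene, rose at both times (1.97 and 2.57), and EGR1, another, rose at 4 h (1.86). CCND1, cyclin D1, fell at both times (-1.90 and -2.83), from 14.2 TPM in controls to 3.74 and 1.64. ETV1, a transcription factor used as a readout of FGF signalling, fell at 12 h (-1.33), and SPRY4, DUSP6 and SPRY2 belong to this list and to the list of inhibitors. The median of these targets was 0.52 at 4 h, -0.58 at 12 h and -0.97 between 12 h and 4 h. In the last comparison 7 of 10 fell, beside 24.3% of all genes. On log2(TPM + 1) the median of all genes was -0.25 at 12 h, which lowers changes at 12 h on that scale. The libraries at 12 h also differed in make-up: mitochondrially encoded transcripts took 12.36% to 14.15% of the counts in 3 cows and 7.22% in cow 12H-6314, against 6.77% to 10.0% in controls, and the TPM-weighted transcript length was 1413 to 1577 bases against 1628 to 1728. With an offset for transcript length, FGF2, FGF10 and FGF18 kept their calls at 12 h, and the part of the mitochondrial share was not tested.

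**Figure D4:**
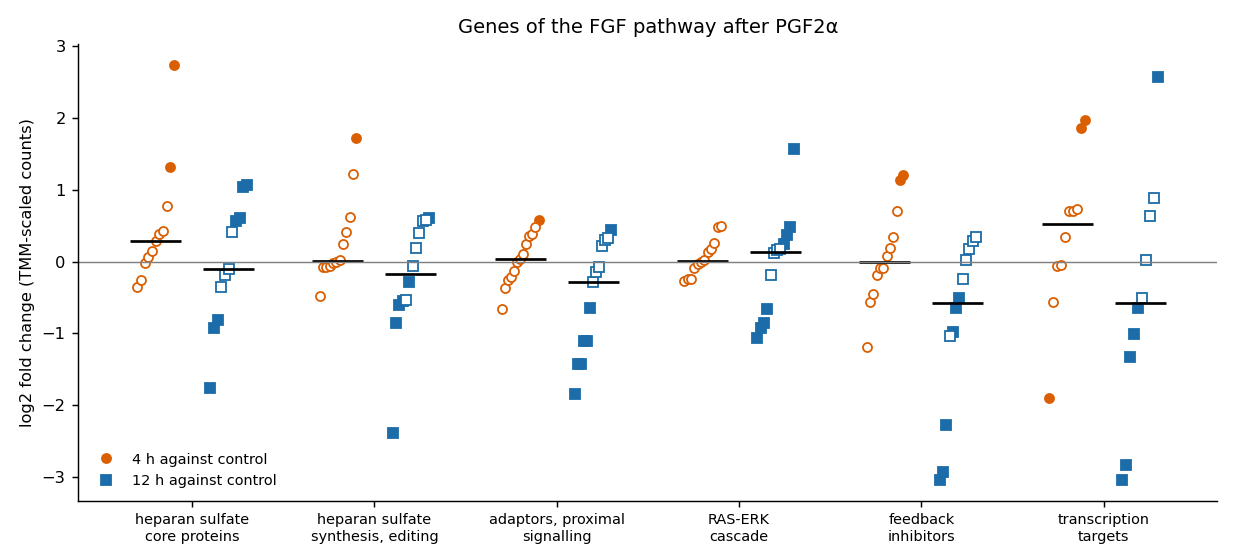
Log2 fold changes from edgeR, on TMM-scaled counts, for each tested gene in 6 lists of the FGF pathway, at 4 h (circles) and 12 h (squares) against control. Filled symbols have an adjusted p under 0.05 and black bars are list medians. At 12 h, 6 of 12 feedback inhibitors and 5 of 10 transcription targets fell, beside 25.3% of all genes tested, and over all genes fewer were called at 4 h (8.65% rose and 5.59% fell).

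Markers of other cells were followed in the same fit, in which 8.65% of all genes rose and 5.59% fell at 4 h, and 23.6% rose and 25.3% fell at 12 h. Macrophage and monocyte markers summed to 205 to 562 TPM in control cows, 250 to 480 TPM in 4 h cows and 501 to 803 TPM in 12 h cows, with 1 of 12 rising at 4 h and 9 of 12 at 12 h. Of the steroidogenic luteal markers, 2 of 9 fell at 4 h and 7 of 9 at 12 h. Endothelial markers had 2 rising and 3 falling of 12 at 4 h and 3 rising and 2 falling at 12 h, with sums of 530 to 792 TPM for controls, 543 to 813 TPM for 4 h cows and 427 to 877 TPM for 12 h cows. Pericyte and smooth muscle markers had 2 of 10 rising at either time and 1 falling at 12 h, and fibroblast markers had 3 of 10 rising at 12 h. The 12 h risers were lost in part without cows 4H-6455 and 12H-6314, with 0 fibroblast, 1 endothelial and 1 pericyte marker left, and 7 macrophage markers. In limma on log2(TPM + 1), 0 fibroblast and 0 endothelial markers rose at 12 h, and 8 macrophage markers did. The part of these cells in the levels of the FGF genes was not tested.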

How the data were processed

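RNA sequencing tables of 12 corpora lutea were used, 1 per cow. The submitters' processing notes name STAR 2.5, RSEM 1.3 and the build ARS-UCD 1.2. The authors deposited, for each gene and cow, RSEM expected counts (estimated counts, not always whole), TPM and FPKM. Strand settings and filters are not given in the sources used here. The files hold 4 cows per group, as the study's figure legend gives, and its methods give another number.

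Whole-number rounding of the expected counts preceded a filter of 10 or more counts in 4 or more of the 12 libraries, which 14481 genes passed. These were fitted in edgeR 4.0.16 (TMM, quasi-likelihood, 3 groups in 1 fit, Benjamini-Hochberg adjustment in each comparison, threshold 0.05). TPM, sums and shares were compared by exact two-sided permutation tests. Summed counts of sparse genes have 95% exact intervals. Alternatives were DESeq2 1.42.0, which the study names, RLE scaling, no count minimum, a minimum of 50, the 2 groups alone, limma 3.58.1 on log2(TPM + 1) and log2(TPM + 0.1), an offset for transcript length (spline with 5 degrees of freedom), FPKM, medians, each cow left out, and cows 4H-6455 and 12H-6314 left out together. The fits were tested on simulated data.

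The FGF genes and all gene lists were chosen with earlier results of these data known. Named genes were the 9 FGF genes, up to 4 genes per list with the smallest p at 12 h and then at 4 h, and the 3 nearest profiles of FGF2 and FGFR1. A few genes chosen by this rule are not reported here. FGF11, FGFBP2 and HS2ST1 were not analysed here. No sequences were used. Other software was R 4.3.3, matplotlib 3.10.9, scipy 1.17.1, numpy 2.4.6, pandas 2.3.3 and Python 3.11.15.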

Additional observations from a re-analysis of the deposited data

Results flagged for a closer look

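In 3 groups of 4 cows, 1 cow lay far from the other 3 by Dixon's criterion, among 39 groups examined, and chance sets apart about 1 in 20. These were FGFR1 in the 12 h cow 12H-6314 (32.43 TPM, gap 0.863 of the range), FGFR2 in the control cow C-4285 (5.61 TPM, gap 0.901) and the summed receptors in cow 12H-6314 (36.96 TPM, gap 0.877). FGFR1 supplies most of the receptor sum, so the first and last of these are not separate.

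The effect of PGF2α differed between times, by the test of 12 h against 4 h, for FGF1 (difference of log2 fold changes -1.08, edgeR adjusted p = 0.0031, n = 4 cows a group) and FGFR2 (1.09, edgeR adjusted p = 0.0159). All 4 cows at 12 h had less FGF1 than all 4 at 4 h, whereas FGFR2 overlapped between the times.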

How the results depend on the processing

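Of 126 counts of called FGF genes over the alternatives, 107 stayed within 1.5 times the reported count and 19 did not. The number rising at 12 h was 1 (FGF2) in place of 3 with a minimum of 50 counts, which leaves FGF10 and FGF18 untested. From 4 h to 12 h, the number rising was 0 in place of 1 in limma with either pseudocount. The number falling was 2 in place of 1 with DESeq2, with no count minimum and with the 2 groups alone (FGF1 and FGF7). It was 3 in limma with either pseudocount (FGF1, FGF2 and FGFR1) and without cows 4H-6455 and 12H-6314 together (FGF1, FGF7 and FGFR1). With each cow left out in turn, the number falling at 4 h ranged from 0 to 1, the number rising from 4 h to 12 h from 1 to 2, and the number falling from 1 to 3. Without cow 12H-6314, FGFR2 and FGF18 rose and FGF1, FGFR1 and FGFR3 fell from 4 h to 12 h, and without cow 12H-7382 FGF18 also rose (edgeR adjusted p = 0.049). Beyond the construction of these fits, the cause was not tested.

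Of 495 log2 fold changes, 17 lost and 22 gained a call, and 5 uncalled values crossed 0 with a shift of at least 1 SE. The other 451 kept their side of the threshold, and uncalled values among these could cross 0 with a smaller shift. FGF7 at 12 h against control did so, with values from -0.42 to 0.27 with each cow left out in turn. In FPKM, the ratio of FGF1 at 12 h to control was 1.032 (exact permutation p = 0.857) and that of FGFR4 was 1 (exact permutation p = 1.0), both below 1 in TPM. All 120 sums and shares were counted as unchanged, but a difference near 0 could still change sign. The FGFR1 share at 12 h differed from control by -0.048 percentage points, and the FGF2 share at 12 h differed from that at 4 h by 0.030. Both differences changed sign without cow 12H-5266. Counts in the pathway lists also moved by over 1.5 times. At 12 h, limma on log2(TPM + 1) had 0 adaptors rising in place of 1, 1 RAS-ERK gene in place of 4 and 2 heparan sulfate core proteins in place of 4. At 4 h, DESeq2 had 5 adaptors rising in place of 1 and 5 transcription targets in place of 2, and without cows 4H-6455 and 12H-6314 the heparan sulfate enzymes had 3 rising in place of 1.

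FGF18, FGFR3 and FGFR4, with 1 to 62 counts a cow, are limited by depth. No paired analysis was possible because the replicate numbers were given in accession order and each cow belongs to 1 group.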
